A study of Mus musculus with 9 samples.

Results

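The genes of transforming growth factor-β (TGF-β) supply, reception and latency were followed in liver fibroblasts of mice by RNA sequencing. They were the 10 rows of the deposited table, of 24453 genes in all, whose symbol was Tgfb1, Tgfb2, Tgfb3, Tgfbr1, Tgfbr2, Tgfbr3, Ltbp1, Ltbp3, Smad3 or Smad7. All mice were of the C57BL/6J strain, and each of the 3 groups had 3 libraries, each made from cells pooled from several mice. Steady-state hepatic stellate cells (HSCs), the vitamin A-storing pericytes of the liver, were separated on a density gradient from normal livers of wild-type mice. CCl4-fib were CD45-GFP+ cells sorted from Col1a2-GFP Tg mice after carbon tetrachloride (CCl4), a hepatotoxin, was given 2 times a week for 8 weeks. NASH-fib were CD45-GFP+ cells sorted from male Col1a2-GFP Tg mice that also lacked melanocortin 4 receptor (MC4R-KO) and had eaten Western diet for 20 weeks, a model of non-alcoholic steatohepatitis (NASH). The promoter of the collagen gene Col1a2 drove GFP in both sorted groups, so their cells were chosen on transcription from it. HSCs carried no transgene and were not sorted, and this difference in isolation cannot be told apart from that between normal and fibrotic liver. The fibroblast groups differed at once in Mc4r genotype, diet, CCl4 and length of treatment, and these cannot be told apart between them. The MC4R-KO mice were 8 weeks old when the diet began. The ages of the wild-type and CCl4-treated mice are not given in the sources used here.

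TGF-β is the best studied driver of collagen synthesis by stellate cells and of their change into myofibroblasts. Its ligands are secreted bound to their own propeptide and to a latent TGF-β binding protein (LTBP), which anchors the inactive complex in the matrix until integrins or proteases release it. The freed ligand binds the type II receptor, which recruits and phosphorylates the type I receptor, and the signal passes to Smad2 and Smad3, while Smad7 acts as an inhibitory Smad that limits it. Betaglycan, the product of Tgfbr3, presents ligand to the receptors and is needed above all for TGF-β2, and its shed ectodomain binds ligand away from them.

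The deposited values are read counts per gene scaled by 1 factor per library, called normalised read counts here. The libraries held between 3071070 and 5634273 reads on genes, and 3 reads corresponded to a normalised read count of 2.38 to 4.37. The level of Mc4r, the knocked-out gene, could not check the labels, since it was read in NASH-fib replicates 1 and 2 (4 and 13 reads) and had 0 reads in the other 7 libraries. Quiescent stellate cell markers summed to 56971 to 63214 in HSCs, 9264 to 22809 in CCl4-fib and 20002 to 32511 in NASH-fib, and activated fibroblast markers to 6764 to 12067, 50998 to 57347 and 29058 to 33282. Libraries of each labelled type thus held the markers of that type, but transcripts of other cells were also read. Hepatocyte markers summed to 30812 to 63262 in HSCs, 2931 to 4591 in CCl4-fib and 10266 to 37825 in NASH-fib. NASH-fib replicate 1 stood apart. Over the tested genes, taken as a description only, its Pearson correlation with the other NASH-fib libraries was 0.768 and 0.815, against 0.793 with HSC replicate 2. The deviations of these 2 libraries from their group means correlated at 0.645. They had the fewest reads on genes of all libraries, 3071070 in HSC replicate 2 and 3289758 in NASH-fib replicate 1. Their shares of reads in the top 10 genes, 4.32% and 4.07%, were the largest. What set them apart was not tested. Both carry the same leading number pair in their sample descriptions, as does CCl4-fib replicate 1. The deviations of that CCl4-fib library correlated with theirs at -0.072 and -0.127. No other number pair was found in all groups. This pair holds 1 library per group, so no test was made within it, and the pair was instead tried as a term of the fit. The results below are also given without HSC replicate 2 and NASH-fib replicate 1 where that changed a call, an alternative chosen after seeing the data.

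Groups were compared with limma on log2(normalised read count + 1), with Benjamini-Hochberg adjustment over the 13651 genes that had enough reads. Calls needed an adjusted p under 0.05 and a log2 fold change whose size was 1 or more. Of the 10 genes, 9 were tested, and Tgfb1 did not pass the filter on low reads. In NASH-fib against HSCs, calls were made for 3 of the 9 as higher and 0 as lower, where 8.23% of all tested genes were called higher and 4.3% lower (12.5% in all). Unadjusted limma p-values under 0.05 were given to 2 genes that stood lower there, and edgeR and DESeq2 also called 0 lower. In CCl4-fib, 3 were called higher and 2 lower than in HSCs, against 16.2% and 11.7% of all genes (27.8% in all). Only Ltbp1 was called between the fibroblast groups, higher in NASH-fib, where 4.97% of all genes were called higher and 5.66% lower (10.6% in all). The median log2 fold change of the 9 genes was 0.41 for NASH-fib against HSCs, 0.43 for CCl4-fib against HSCs and 0.45 for NASH-fib against CCl4-fib, beside medians of -0.02, 0.18 and -0.11 over all tested genes. For each of these 9 calls the libraries of the groups compared did not overlap. Their direction within the number pair found in all groups was therefore fixed, and it tests nothing about the pair. Both comparisons with HSCs use the same HSC libraries. In bulk samples, fewer cells of a type and less RNA per cell cannot be told apart.

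**Figure D1:**
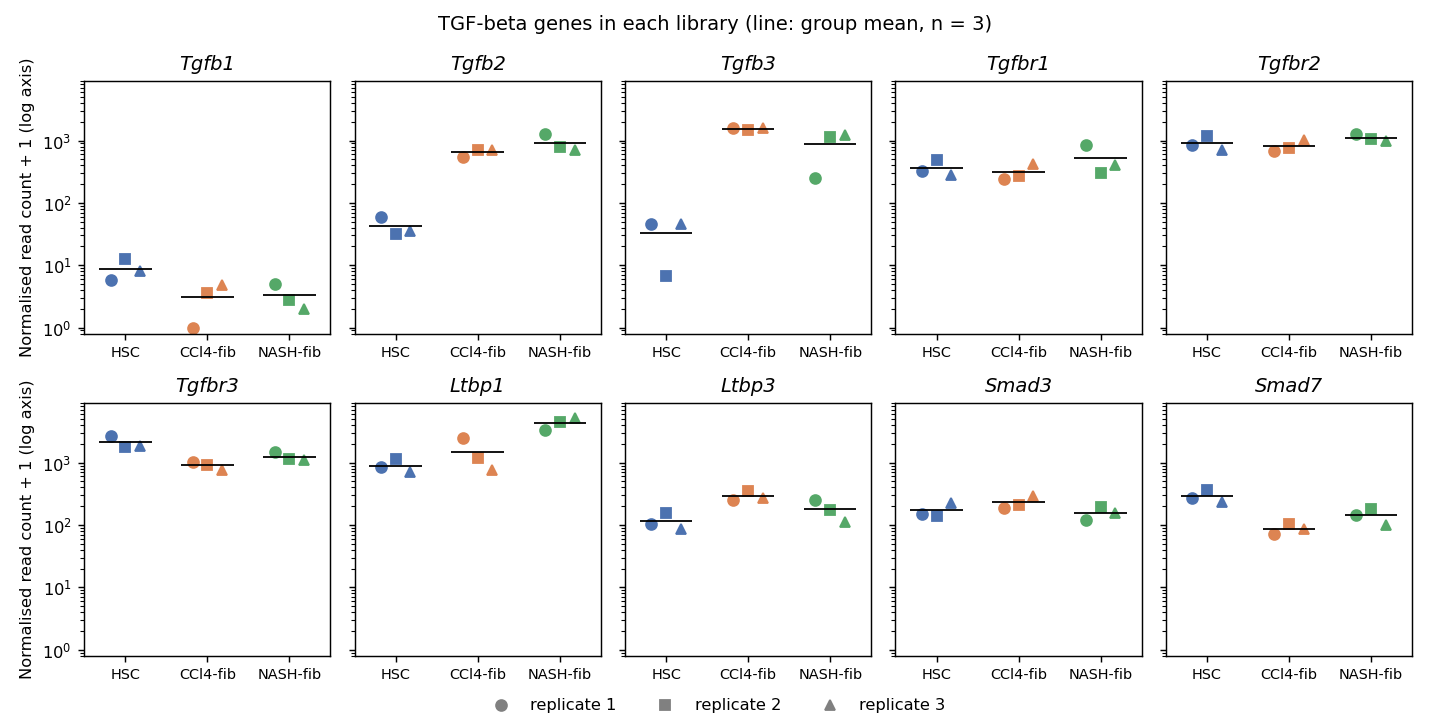
Normalised read count plus 1 of each gene in each library, on a log axis, with 1 panel per gene, symbols for the replicates and a line at the group mean (n = 3). Tgfb2 and Tgfb3 sit lowest in the 3 HSC libraries, Ltbp1 sits highest in the 3 NASH-fib libraries, and NASH-fib replicate 1 is the lowest fibroblast library for Tgfb3, at 250.1.

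**Figure D2:**
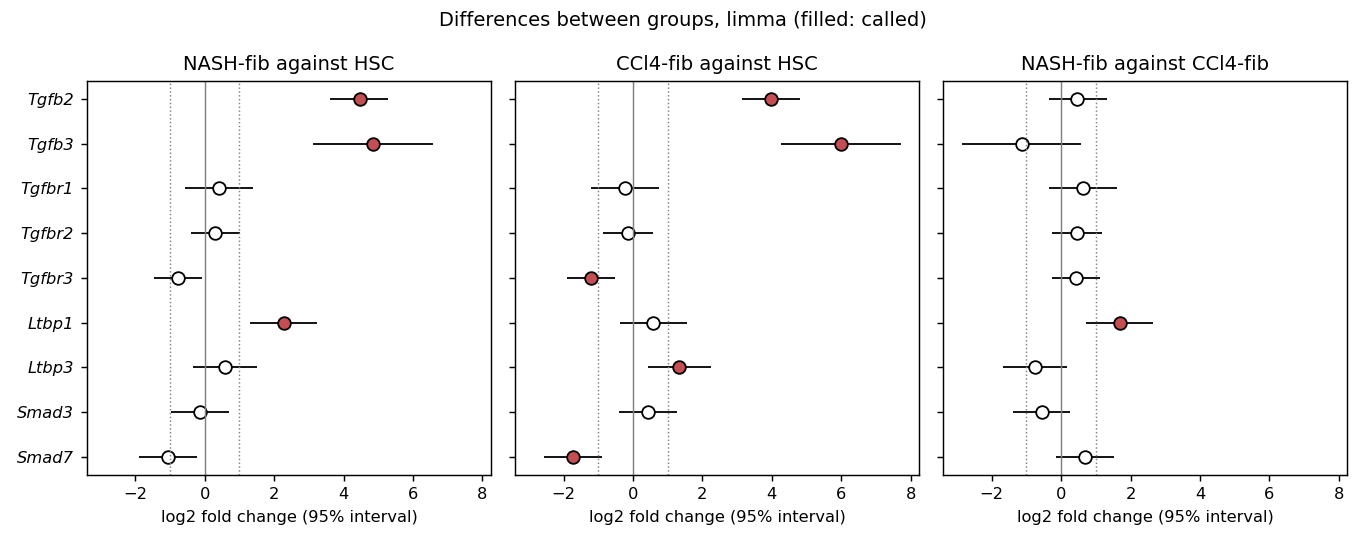
Log2 fold change of the 9 tested genes in each comparison (limma), with 95% confidence intervals as lines, filled circles for called genes and dotted lines at a change of 1 in size. Tgfb2 and Tgfb3 are called against HSCs in both fibroblast groups, and Ltbp1 is the only filled circle between the fibroblast groups, at 1.69.

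Among the ligands, Tgfb2 and Tgfb3 rose in both fibroblast groups from a low level in HSCs, whereas Tgfb1 was scarcely read in any library. Tgfb2 encodes the isoform that depends most on betaglycan. In mm10 it spans 186623186 to 186705992 of chromosome 1 (- strand). The 250 bases before its start site (RefSeq, GRCm38.p6, chr1:186705990-186706239, - strand) are shown because Tgfb2 had the lowest adjusted p of the 9 against HSCs in both fibroblast groups, with matches to 5 motifs searched on both strands in capitals.
Tgfb2: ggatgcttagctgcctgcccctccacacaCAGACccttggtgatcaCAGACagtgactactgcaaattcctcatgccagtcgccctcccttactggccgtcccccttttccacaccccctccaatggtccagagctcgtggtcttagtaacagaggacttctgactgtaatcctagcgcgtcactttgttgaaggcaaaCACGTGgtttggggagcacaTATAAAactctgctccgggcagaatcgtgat
The motifs were the Smad box CAGAC, the E-box CACGTG, the cyclic AMP response element (CRE) TGACGTCA, the AP-1 site TGACTCA and the TATA box TATAAA. They were found in 42.2%, 6.02%, 1.55%, 4.46% and 12.4% of 32851 RefSeq promoter windows of this length, in this order. The Tgfb2 window held Smad boxes beginning at -221 and -204 from the start site, an E-box at -51 and a TATA box at -31. A window was found for 7 of the 10 genes, with 9 windows in all, and of these 6 held a Smad box, 1 an E-box, 1 a CRE, 0 an AP-1 site and 1 a TATA box. Tgfb3, Tgfbr3 and Smad7 had no window in the table used.

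The normalised read counts of Tgfb2 in replicates 1, 2 and 3 were 58.5, 30.6 and 34.7 in HSCs. They were 545, 696 and 702 in CCl4-fib. They were 1266, 799.8 and 701 in NASH-fib. The HSC libraries were the 3 lowest, and the fibroblast groups overlapped. The log2 fold change against HSCs was 4.46 in NASH-fib, with a standard error of 0.38 (limma, Benjamini-Hochberg adjusted p = 4.73e-05). It was 3.99 in CCl4-fib (limma, Benjamini-Hochberg adjusted p = 6.27e-05). NASH-fib and CCl4-fib differed by 0.47, with a 95% interval from -0.36 to 1.31 (limma, Benjamini-Hochberg adjusted p = 0.435). Of the exonic bases of Tgfb2, 124 are shared with the antisense gene Gm29491, whose reads cannot be told apart since both strands were counted.

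Tgfb3 encodes the third ligand and lies on the - strand of chromosome 12 from 86056743 to 86079041. Its normalised read counts were 44.4, 5.82 and 45.4 in HSC replicates 1, 2 and 3. They were 1572, 1484 and 1594 in CCl4-fib. They were 250.1, 1137 and 1209.8 in NASH-fib. The CCl4-fib libraries lay close together and above all others, and the lowest library of both the HSC and the NASH-fib group was the one that stood apart there. Against HSCs the log2 fold change was 5.99 in CCl4-fib, with a standard error of 0.78 (limma, Benjamini-Hochberg adjusted p = 0.000357). It was 4.85 in NASH-fib (limma, Benjamini-Hochberg adjusted p = 0.00202), 3.93 without HSC replicate 2 and 5.59 without NASH-fib replicate 1. In CCl4-fib it was 5.08 without HSC replicate 2, and all of these remained past the threshold. NASH-fib and CCl4-fib did not overlap, but their difference of -1.14 had an interval from -2.87 to 0.58 (limma, Benjamini-Hochberg adjusted p = 0.36), and it was -0.40 with both libraries that stood apart left out. Portal fibroblast markers, of which 6 of 8 had more than 3 reads in each HSC library and all 8 in each fibroblast library, moved with Tgfb3 as a sum. They summed to 211.1 to 246.7 in HSCs and 15772 to 18208 in CCl4-fib. For NASH-fib replicates 1, 2 and 3 the sums were 6680, 14747 and 14368. Between the fibroblast groups the single markers split. Fbln2, Eln and Entpd2 were lower in every NASH-fib library, and Mfap4 and Clec3b overlapped. Cd34, Dpt and Thy1 were higher in NASH-fib replicates 2 and 3 than in any CCl4-fib library. The part of these markers in the level of Tgfb3 was not tested. Of the exonic bases of Tgfb3, 420 overlap Gm37804 or Gm48008 on the other strand.

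Tgfb1 is the ligand most often measured in liver fibrosis, and platelets, macrophages and lymphocytes are known sources of it. Located on the + strand of chromosome 7 from 25687002 to 25705077, it had 4, 8 and 6 reads in HSC replicates 1, 2 and 3. There were 0, 3 and 4 reads in CCl4-fib. There were 3, 2 and 1 reads in NASH-fib. As normalised read counts the HSC libraries, at 4.68, 11.65 and 7.17, lay above all fibroblast libraries, at 0 to 4.08, although CCl4-fib replicate 3 had as many reads as HSC replicate 1. Without the filter on low reads the log2 fold change against HSCs was -1.46 in NASH-fib and -1.70 in CCl4-fib (limma, Benjamini-Hochberg adjusted p = 0.309 and 0.128). Neither passed the threshold, and at 0 to 8 reads a library a difference could not be shown at this depth. Macrophage markers, of which 9 to 11 of 11 had more than 3 reads in each library, summed to 3823 to 13914 in HSCs, 273.8 to 484.8 in CCl4-fib and 842.5 to 3024 in NASH-fib. Their part in the level of Tgfb1 was not tested. The Tgfb1 transcript had the highest GC share of the genes of the set, at 62.5%. That of Ltbp3 was 61.5%, that of Tgfb3 53% and that of Tgfb2 46.9%. The part of GC in the few reads of Tgfb1 was not tested, and few reads do not show that the cells made none.

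Levels between genes were compared as RPKM, the reads scaled to exon length in kb and to the reads on genes of each library. The RPKM of the 3 ligands had a sum of 4.88 ± 1.64 in HSCs, 134 ± 4.99 in CCl4-fib and 101 ± 21 in NASH-fib (SD, n = 3 each). Of this sum, Tgfb3 made up 80.1%, 74.7% and 75.8% in CCl4-fib replicates 1, 2 and 3. In NASH-fib it made up 21.5%, 66.4% and 70.6%, and Tgfb2 made up 77.9%, 33.4% and 29.3%. Tgfb3 was thus the larger share in 5 of the 6 fibroblast libraries, and NASH-fib replicate 1 was the exception. In HSCs, Tgfb1 made up 7.79% to 39.6%, Tgfb2 30.5% to 47.7% and Tgfb3 12.7% to 55.8%, ranges that overlap and rest on few reads. No test was made of these shares, since an exact two-sided permutation test of 3 libraries against 3 gives no p under 0.1.

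**Figure D3:**
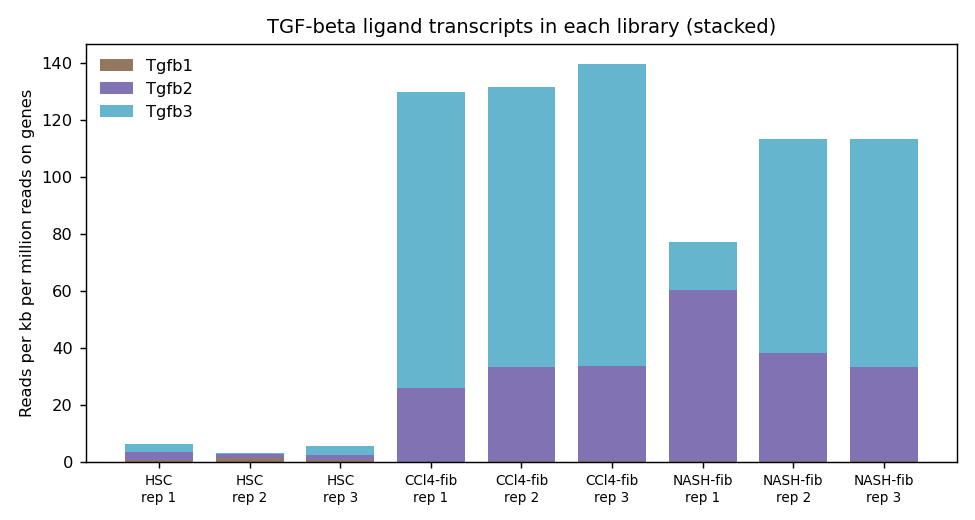
RPKM (reads scaled to exon length in kb and to library size) of the 3 TGF-β ligands, stacked, in each of the 9 libraries. The bars reach 3.04 to 6.2 in HSCs, 130 to 139 in CCl4-fib and 77 to 113 in NASH-fib, and Tgfb3 is the larger part in all CCl4-fib libraries and in NASH-fib replicates 2 and 3.

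The signalling receptors were not called in any comparison, while the co-receptor gene Tgfbr3 fell in CCl4-fib. Tgfbr1 encodes the type I receptor kinase (chromosome 4, + strand, 47353222 to 47414924). Its normalised read counts were 320.3, 491 and 281 in HSC replicates 1, 2 and 3. They were 244, 272 and 414 in CCl4-fib. They were 849.6, 304 and 405 in NASH-fib. The groups overlapped, and the highest library was NASH-fib replicate 1. The log2 fold change against HSCs was 0.41 in NASH-fib, with a 95% interval from -0.56 to 1.39 (limma, Benjamini-Hochberg adjusted p = 0.697), and -0.01 without NASH-fib replicate 1. In CCl4-fib it was -0.23, with an interval from -1.20 to 0.75 (limma, Benjamini-Hochberg adjusted p = 0.727).

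Tgfbr2, the gene of the type II receptor that first binds ligand (chromosome 9, - strand, 116087695 to 116175363), had normalised read counts of 831, 1181 and 709 in HSCs. In CCl4-fib they were 667, 761 and 1010.3. In NASH-fib they were 1251, 1072 and 983. All groups overlapped, and NASH-fib replicate 1 was highest. The interval of the log2 fold change ran from -0.41 to 1.02 for NASH-fib against HSCs, with a value of 0.31 (limma, Benjamini-Hochberg adjusted p = 0.692). It ran from -0.86 to 0.57 for CCl4-fib against HSCs, with a value of -0.15 (limma, Benjamini-Hochberg adjusted p = 0.761). Between the fibroblast groups the differences of Tgfbr1 and Tgfbr2 were 0.64 and 0.45, and neither passed the threshold.

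Tgfbr3 (chromosome 5, - strand, 107106570 to 107289595) had normalised read counts of 2712, 1813 and 1852 in HSC replicates 1, 2 and 3. They were 1041, 932 and 773 in CCl4-fib. They were 1482, 1145 and 1082 in NASH-fib. Every HSC library lay above every fibroblast library, and every NASH-fib library lay above every CCl4-fib library. Tgfbr3 fell by 1.20 on the log2 scale in CCl4-fib against HSCs, with a standard error of 0.31 (limma, Benjamini-Hochberg adjusted p = 0.0166). This call was lost without HSC replicate 1 (adjusted p = 0.0671), CCl4-fib replicate 2 (adjusted p = 0.0592) or CCl4-fib replicate 3 (adjusted p = 0.0669, all limma), and with the leading number pair as a term (adjusted p = 0.139). In NASH-fib the log2 fold change was -0.77, with an interval from -1.46 to -0.08 (limma, Benjamini-Hochberg adjusted p = 0.163). With HSC replicate 2 and NASH-fib replicate 1 both left out it was -1.01 and passed (limma, Benjamini-Hochberg adjusted p = 0.0359). All 3 NASH-fib libraries lay between the other groups, though the difference between NASH-fib and CCl4-fib was 0.43, with an interval from -0.26 to 1.12. Tgfbr3 shares 297 exonic bases with Gm43422 on its own strand. Markers of sinusoidal endothelial cells, of which 8 to 10 of 10 had more than 3 reads in each library, summed to 7004 to 14530 in HSCs, 260.5 to 329.4 in CCl4-fib and 1181 to 3757 in NASH-fib. These markers and those of hepatocytes stood lower in CCl4-fib, as Tgfbr3 did, and their part in its difference was not tested.

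Of the latency genes, Ltbp1 rose in NASH-fib against both other groups, whereas Ltbp3 rose in CCl4-fib against HSCs. Ltbp1 encodes a binding protein that joins the small latent complex and ties it to the matrix. It was listed on the + strand of chromosome 17 from 75178810 to 75392967, and RefSeq has windows for an upstream and an internal start site. Both are shown because Ltbp1 was the gene that differed between the fibroblast groups (GRCm38.p6, chr17:75005279-75005528 and chr17:75178531-75178780, + strand, capitals as for Tgfb2, with GTCTG marking a Smad box on the other strand).
Ltbp1 upstream start: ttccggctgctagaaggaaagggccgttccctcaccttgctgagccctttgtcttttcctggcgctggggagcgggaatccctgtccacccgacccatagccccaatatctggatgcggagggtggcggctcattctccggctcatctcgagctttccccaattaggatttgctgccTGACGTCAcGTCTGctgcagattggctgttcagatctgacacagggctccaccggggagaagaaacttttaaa
Ltbp1 internal start: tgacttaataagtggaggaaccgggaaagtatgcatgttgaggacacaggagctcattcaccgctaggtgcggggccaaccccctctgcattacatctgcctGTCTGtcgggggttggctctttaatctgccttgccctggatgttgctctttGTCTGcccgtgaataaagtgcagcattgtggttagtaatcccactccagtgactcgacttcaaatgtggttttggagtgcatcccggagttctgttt
The upstream window held a CRE beginning at -73 and a Smad box at -64, and the internal window held Smad boxes at -148 and -97. The deposited entry begins near the internal start site, which is at 75178781, and reads of both forms could be counted in the exons they share.

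Ltbp1 had normalised read counts of 853, 1123 and 719 in HSC replicates 1, 2 and 3. They were 2514, 1201 and 769 in CCl4-fib. They were 3324, 4478 and 5233 in NASH-fib. Every NASH-fib library lay above all other libraries, and the CCl4-fib libraries were spread widely, with replicate 3 inside the range of HSCs. The log2 fold change of NASH-fib against HSCs was 2.27, with a standard error of 0.44 (limma, Benjamini-Hochberg adjusted p = 0.00582). With the leading number pair of the sample descriptions as a term of the fit, this adjusted p was 0.0941. Against CCl4-fib it was 1.69, with a 95% interval from 0.72 to 2.66 (limma, Benjamini-Hochberg adjusted p = 0.0363). CCl4-fib and HSCs differed by 0.58, with an interval from -0.38 to 1.55 (limma, Benjamini-Hochberg adjusted p = 0.34). Ltbp1 is in the list of NASH-fib genes that the study chose on these libraries, so its direction here is not independent evidence.

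The call against CCl4-fib lay near the threshold. It was lost without HSC replicate 1, CCl4-fib replicate 2 or 3, or any 1 of the NASH-fib libraries, with adjusted p-values from 0.0505 to 0.137 (limma, Benjamini-Hochberg), and the log2 fold change stayed between 1.30 and 2.15. With HSC replicate 2 and NASH-fib replicate 1 both left out it was 1.87 (limma, Benjamini-Hochberg adjusted p = 0.0201). Smooth muscle markers, all 7 of which had more than 3 reads in each fibroblast library, summed to 14073, 3092 and 3048 in CCl4-fib replicates 1, 2 and 3. They summed to 5147, 20605 and 11035 in NASH-fib and to 99.02 to 173 in HSCs, where Casq2 was at 0. Within CCl4-fib the library with the highest Ltbp1 also had the highest sum, while within NASH-fib the highest Ltbp1 was in replicate 3 and the highest sum in replicate 2. Mesothelial markers, all 5 of which had more than 3 reads in every library, summed to 550.4 to 790.2 in HSCs, 11676 to 18055 in CCl4-fib and 20896 to 26217 in NASH-fib. The sums stood in the order of the Ltbp1 group means. Their highest libraries within CCl4-fib and NASH-fib, replicates 1 and 3, were those of Ltbp1. Single mesothelial markers did not all follow. Wt1 was at 859.6 to 1649 in CCl4-fib and 379.4 to 466.3 in NASH-fib, and Upk3b was also lower in every NASH-fib library. Gpm6a was higher in every NASH-fib library, though highest in replicate 1, and Msln and Lrrn4 overlapped between the fibroblast groups. The part of either marker list in the level of Ltbp1 was not tested.

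Ltbp3, which encodes another latent TGF-β binding protein known for its role in bone and teeth, lies on the + strand of chromosome 19 from 5740904 to 5758532. Its normalised read counts were 104, 157 and 86.1 in HSCs. They were 248, 344 and 274 in CCl4-fib. They were 254, 173 and 109 in NASH-fib. CCl4-fib lay above HSCs in all libraries, and NASH-fib overlapped both groups. It rose by a log2 fold change of 1.34 in CCl4-fib against HSCs, with a standard error of 0.41 (limma, Benjamini-Hochberg adjusted p = 0.0342). The call was lost with edgeR on the recovered reads (adjusted p = 0.0711) and with limma on TMM-scaled log2 CPM (adjusted p = 0.0566). It was also lost without HSC replicate 1 or 3 or any 1 of the CCl4-fib libraries, with adjusted p-values from 0.0728 to 0.128 (limma). In NASH-fib the log2 fold change was 0.58, with an interval from -0.33 to 1.50 (limma, Benjamini-Hochberg adjusted p = 0.496).

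The signal transducer Smad3 was not called, and the inhibitor Smad7 fell in CCl4-fib. Smad3, which the type I receptor phosphorylates (chromosome 9, - strand, 63646767 to 63757994), had normalised read counts of 151, 138 and 225 in HSCs. In CCl4-fib they were 189, 208 and 294. In NASH-fib they were 119.6, 195 and 152. All groups overlapped. Its log2 fold change was -0.13 in NASH-fib against HSCs, with an interval from -0.96 to 0.69 (limma, Benjamini-Hochberg adjusted p = 0.917). In CCl4-fib it was 0.43, with an interval from -0.39 to 1.26 (limma, Benjamini-Hochberg adjusted p = 0.408).

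Smad7 is itself known to be induced by TGF-β and to restrain the receptors. Listed on the + strand of chromosome 18, it had normalised read counts of 270.0, 364 and 236 in HSC replicates 1, 2 and 3. They were 70.6, 103 and 84.9 in CCl4-fib. They were 145, 182 and 97.3 in NASH-fib. The 3 HSC libraries were the highest, and the fibroblast groups overlapped. Smad7 fell by 1.73 on the log2 scale in CCl4-fib, with a standard error of 0.38 (limma, Benjamini-Hochberg adjusted p = 0.00697), a call lost only with the leading number pair as a term of the fit (adjusted p = 0.052). In NASH-fib the log2 fold change was -1.05, with an interval from -1.89 to -0.21 (limma, Benjamini-Hochberg adjusted p = 0.112). Counting every gene whose libraries did not overlap between groups, Smad7 was 1 of 5 of the 9 tested genes in NASH-fib against HSCs, where 24.4% of all tested genes did not overlap. The count was 5 in CCl4-fib against HSCs, where 48.6% did not, and 3 in NASH-fib against CCl4-fib, where 39.1% did not.

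The order of the RPKM levels differed between groups. In HSCs, Tgfbr3 was highest at 78.8 ± 18.8 RPKM (SD, n = 3), followed by Tgfbr2 at 43.1, whose libraries overlapped those of Ltbp1 at 29.8. Smad7 at 14.6 and Tgfbr1 at 14.2 overlapped, as did Smad3 at 7.54 and Ltbp3 at 5.02, and then Tgfb3 at 2.11 and Tgfb2 at 1.96, with Tgfb1 last at 0.809. In CCl4-fib, Tgfb3 led at 103 ± 3.85 RPKM (SD, n = 3), apart from all others. Ltbp1 at 49.6, Tgfbr2 at 38.6, Tgfbr3 at 33.9 and Tgfb2 at 30.7 each overlapped the next, then Ltbp3 at 12.5, Tgfbr1 at 12.1 and Smad3 at 10.1 overlapped, and Smad7 at 4.34 and Tgfb1 at 0.219 came last. In NASH-fib, Ltbp1 led at 144 ± 31.9 RPKM (SD, n = 3), apart from Tgfb3 at 57.3, Tgfbr2 at 52.4, Tgfbr3 at 45.8 and Tgfb2 at 43.7, which each overlapped the next. Tgfbr1 at 20.2 stood apart from both neighbours, though its highest library, at 33.1, lay just below the lowest of Tgfb2, at 33.2. Ltbp3 at 7.74, Smad7 at 7.13 and Smad3 at 6.85 overlapped, and Tgfb1 was last at 0.235. A Tgfb3 level of 2.11 RPKM in HSCs exceeded that of 22.9% of the tested genes, and its level of 103 in CCl4-fib exceeded that of 92% of them.

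Around these genes, 57 others of the pathway were taken from 4 lists, and 55 of them had enough reads to be tested. Their calls are to be read beside the 12.5% of all tested genes called in NASH-fib against HSCs, 27.8% in CCl4-fib against HSCs and 10.6% between the fibroblast groups. Of 15 genes of latency and activation, 4 rose and 1 fell in NASH-fib against HSCs, and 5 rose and 2 fell in CCl4-fib, with median log2 fold changes of 0.14 and 0.95, beside -0.02 and 0.18 over all tested genes. Thbs1, whose product thrombospondin-1 activates latent TGF-β, rose in both, by 3.34 in NASH-fib (limma, Benjamini-Hochberg adjusted p = 0.000899) and by 4.51 in CCl4-fib (adjusted p = 9.49e-05). So did Fbn1, the gene of the microfibril protein to which LTBPs bind, by 1.71 (adjusted p = 0.00277) and 2.74 (adjusted p = 0.000108, limma). Ltbp2, a microfibril protein of the same family that does not bind TGF-β, had normalised read counts of 5.84, 1.46 and 2.39 in HSCs. They were 909, 1224 and 882 in CCl4-fib. They were 126, 231 and 71.8 in NASH-fib. Ltbp2 was thus lowest in HSCs and highest in CCl4-fib, with no overlap between any groups, and its log2 fold change of NASH-fib against CCl4-fib was -2.95 (limma, Benjamini-Hochberg adjusted p = 0.0131). Its difference therefore ran opposite to that of Ltbp1, which was higher in NASH-fib.

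Between the fibroblast groups, 2 of the 15 latency and activation genes were higher and 3 lower in NASH-fib, and 2 were lower with both libraries that stood apart left out. Mmp14, a membrane metalloproteinase that can release latent TGF-β, was at 1344 ± 509 in CCl4-fib and 187 ± 44.4 in NASH-fib (SD, n = 3 each), a log2 fold change of -2.79 (limma, Benjamini-Hochberg adjusted p = 0.00644). Itgb6, the β subunit of the epithelial integrin that frees TGF-β from its propeptide, had 0 reads in all CCl4-fib libraries and 23, 24 and 26 reads in NASH-fib, and was at least 9.11-fold higher in NASH-fib, taking 3 reads per library as the floor. HSCs had 1 read of it in all. Cholangiocyte markers, of which 2 to 6 of 6 had more than 3 reads in each library, summed to 72.48 to 225.7 in HSCs. They summed to 3488 to 4778 in CCl4-fib and 6087 to 11854 in NASH-fib, where Spp1 was most of each sum. Krt19 went the other way, at 770.9 to 2699 in CCl4-fib and 53.02 to 469.4 in NASH-fib. Krt7 overlapped, and Cftr, Epcam and Sox9 were higher in every NASH-fib library than in any CCl4-fib library. The part of these markers in the level of Itgb6 was not tested. Nrros, a latency anchor of macrophages, had 30, 49 and 79 reads in HSCs. CCl4-fib had 0, 5 and 1 reads of it, and NASH-fib 10, 20 and 31. Its fall in CCl4-fib (limma, Benjamini-Hochberg adjusted p = 0.000841) went with the lower sum of macrophage markers there, whose part in it was not tested. Itgb3, another integrin β subunit, fell by 2.72 in NASH-fib (adjusted p = 0.00579) and fell by 2.67 in CCl4-fib (adjusted p = 0.00373, limma).

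Of 6 co-receptors and receptor-level regulators, 1 rose and 2 fell in NASH-fib and 2 rose and 2 fell in CCl4-fib against HSCs, and between the fibroblast groups 0 were called by limma, edgeR or DESeq2 and 0 had an unadjusted p under 0.05. Eng, the gene of endoglin, a co-receptor best known in endothelium, had a normalised read count of 494 ± 81.4 in HSCs, 84.3 ± 35.4 in CCl4-fib and 74.7 ± 9.41 in NASH-fib (SD, n = 3 each). Against HSCs it fell by 2.70 on the log2 scale in NASH-fib (limma, Benjamini-Hochberg adjusted p = 0.00158) and fell by 2.63 in CCl4-fib (adjusted p = 0.00117), and endothelial markers were lower in the same groups. The pseudoreceptor gene Bambi, whose product dampens TGF-β signalling and is known to be lost as stellate cells activate, fell by 1.99 in NASH-fib (limma, Benjamini-Hochberg adjusted p = 0.00586) and fell by 1.32 in CCl4-fib (adjusted p = 0.0276). Cd109, a surface protein that binds TGF-β and promotes receptor turnover, had 1 read in the 3 HSC libraries together. CCl4-fib had 43, 69 and 32 reads of it and NASH-fib 51, 38 and 46, and it was called higher in both (limma, Benjamini-Hochberg adjusted p = 0.000227 and 0.00027).

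Of 18 intracellular transducers and regulators, only Tgif1, a transcriptional corepressor of Smads, was called against HSCs by limma, with a log2 fold change of 1.20 in NASH-fib (limma, Benjamini-Hochberg adjusted p = 0.0475) and 1.19 in CCl4-fib (adjusted p = 0.0279). Its normalised read count was 136 ± 42 in HSCs, 303 ± 37.8 in CCl4-fib and 304 ± 31.3 in NASH-fib (SD, n = 3 each). Pmepa1, a TGF-β target that limits Smad signalling, was lower in NASH-fib than in CCl4-fib, at 258 ± 104 against 766 ± 174 (SD, n = 3), with a log2 fold change of -1.61 (limma, Benjamini-Hochberg adjusted p = 0.0365). The call of Tgif1 was lost in both groups with edgeR, and with HSC replicate 2 and NASH-fib replicate 1 both left out. That of Pmepa1 was lost with edgeR (adjusted p = 0.0529). Against HSCs, DESeq2 called Tgif2 lower in NASH-fib, and Nedd4l, Smad6 and Wwp1 lower in CCl4-fib, of which edgeR called Nedd4l. The log2 fold change of Smad6, another inhibitory Smad, was -1.77 in CCl4-fib (limma, Benjamini-Hochberg adjusted p = 0.0711). Smad2 and Smad4 were not called by limma, edgeR or DESeq2 in any comparison.

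Of 18 genes known to be induced by TGF-β in fibroblasts, 16 were tested. Against HSCs, 8 rose and 2 fell in NASH-fib, and 11 rose and 1 fell in CCl4-fib, with median log2 fold changes of 1.86 and 2.97, beside -0.02 and 0.18 over all tested genes. With HSC replicate 2 and NASH-fib replicate 1 both left out, 10 rose and 2 fell in NASH-fib and 11 rose and 2 fell in CCl4-fib. All 8 activated fibroblast markers are among them, and the sorted cells were chosen on Col1a2 transcription, which is itself on the list. Acta2, the gene of α-smooth muscle actin, rose by 6.81 in NASH-fib (limma, Benjamini-Hochberg adjusted p = 1.09e-05) and by 6.57 in CCl4-fib (adjusted p = 6.98e-06). Lox, a collagen cross-linking enzyme, rose by 6.01 (adjusted p = 0.00325) and 7.06 (adjusted p = 0.000793), and Timp1, an inhibitor of metalloproteinases, by 5.69 (adjusted p = 0.00111) and 6.07 (adjusted p = 0.00048, limma). Smooth muscle markers were also higher in both fibroblast groups, as given above, and their part in the level of Acta2 was not tested.

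The list did not move in 1 direction. Tgfbi, an extracellular adhesion protein named for its induction by TGF-β, had normalised read counts of 6874, 4514 and 6702 in HSCs. They were 491, 628 and 485 in CCl4-fib. They were 492, 867 and 566 in NASH-fib. It thus stood lower in every fibroblast library, and fell by 3.25 in NASH-fib (limma, Benjamini-Hochberg adjusted p = 0.000157) and fell by 3.48 in CCl4-fib (adjusted p = 6.78e-05). Postn, the gene of the matricellular protein periostin, fell by 1.71 in NASH-fib (limma, Benjamini-Hochberg adjusted p = 0.0225), a call lost with edgeR (adjusted p = 0.0716), and its log2 fold change was -1.24 in CCl4-fib (adjusted p = 0.0511). Between the fibroblast groups, 0 of the 16 were higher and 5 lower in NASH-fib by limma, where 0 were higher at an unadjusted p under 0.05. Neither edgeR nor DESeq2 called a gene higher. The 5 were Col1a1, Col1a2, Col3a1, Fn1 and Cdkn2b. Of these, edgeR called 2, Fn1 and Cdkn2b. DESeq2 called 5 genes of the list lower, among them all of these but Col1a2. Fn1, the fibronectin gene, was at 1476 ± 110 in NASH-fib, 7753 ± 1544 in CCl4-fib and 1392 ± 240 in HSCs (SD, n = 3 each). Its log2 fold change of NASH-fib against CCl4-fib was -2.37 (limma, Benjamini-Hochberg adjusted p = 0.00562). Cdkn2b, a cell cycle inhibitor, had 0, 1 and 2 reads in NASH-fib and 24, 35 and 36 in CCl4-fib (limma, Benjamini-Hochberg adjusted p = 0.0134).

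**Figure D4:**
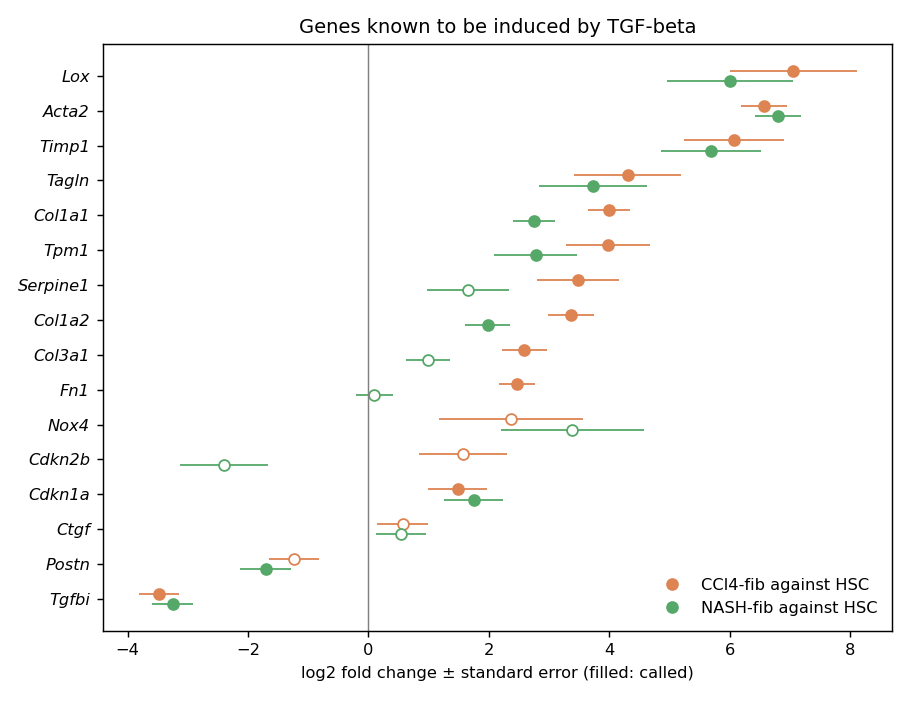
Log2 fold change against HSCs (limma) of the 16 tested genes known to be induced by TGF-β, in CCl4-fib and NASH-fib, with lines for 1 standard error and filled circles for called genes, ordered by the change in CCl4-fib. Both groups share the HSC libraries, Lox, Acta2 and Timp1 stand highest in both, and Tgfbi stands lowest, at -3.48 and -3.25.

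The genes whose log2 values most resembled those of the 9 tested genes over the 9 libraries were found by Pearson correlation, as a description. These libraries share groups, so that any gene that separates HSCs from fibroblasts resembles the others that do. For Tgfb2 the nearest were Vldlr (r = 0.994), a lipoprotein receptor gene, and Cd109 (r = 0.992), the co-receptor above. Tgfb3 was nearest to Daglb (r = 0.995), and Ltbp1 to Abca8a (r = 0.982). Smad7 was nearest to Sumf1 (r = 0.988), Tgfbr3 to Il15ra (r = 0.98) and Ltbp3 to the collagen VI gene Col6a3 (r = 0.979). Tgfbr1 was nearest to Far2 (r = 0.985), Tgfbr2 to Hsd17b11 (r = 0.96) and Smad3 to Exosc1 (r = 0.954). Among the 9 genes themselves, Tgfb2 and Tgfb3 had an r of 0.887, Tgfbr1 and Tgfbr2 of 0.842, and Tgfbr3 and Smad7 of 0.842, whereas Smad7 and Tgfb3 had an r of -0.911. Ltbp1, Ltbp3 and Smad3 followed none of the others as closely. Their highest r was 0.643 for Ltbp1 and 0.663 for Ltbp3, both with Tgfb2, and 0.441 for Smad3, with Tgfb3. Their lowest r was -0.438 for Ltbp1 with Smad3, -0.682 for Ltbp3 with Tgfbr3 and -0.572 for Smad3 with Tgfbr1.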

How the data were processed

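RNA of pooled mice was amplified with the SMARTer kit and read single-end. The authors aligned the reads with STAR to mm10 (version not given in the sources used here). Per the file header, HOMER counted reads of both strands on RefSeq exons, at most 3 per position. The transcripts of a gene were joined. The header names DESeq2 normalization and 10 libraries, of which 9 were used here. In each of these the values summed to between 4471988 and 4471995. They were thus in effect scaled to the same total per library, which does not correct for differences in composition. The deposited values are thus a signal, read counts multiplied by 1 factor per library. Divided by what 1 read is worth, 100% of the values were whole reads (tolerance 0.02), which set depth, RPKM and the filter. The limit per position lowers the values of genes with very many reads. Amplified reads are not independent molecules, so floors cover counting error only.

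Genes kept by filterByExpr of edgeR 4.0.16 (minimum count 10) entered limma 3.58.1 on log2(value + 1), with a trended prior and 1 fit over 9 libraries, in R 4.3.3. The scale understates changes of low genes. P-values measure the spread between pools. Alternatives were pseudocounts of 0.5 and 5, no filter, a mean value of at least 100, upper-quartile and TMM scaling, edgeR, DESeq2 1.42.0, other fits and each library left out. Replicates were not copies (chi-square of 18.6 to 99.6 per gene for pairs).

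The members and lists were chosen with earlier results of these data known. All members were named, with up to 5 called genes of the pathway lists per direction and comparison and the nearest genes by correlation. Genes named outside this rule, after their values were seen, are Thbs1, Fbn1, Tgif1, Tgif2, Nedd4l, Wwp1, Smad2, Smad4, Smad6, Col1a1, Col1a2 and Col3a1. Single genes of the cell type marker lists were also named after their values were seen. Promoter windows came from RefSeq and exonic overlaps from GENCODE M21.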

Additional observations from a re-analysis of the deposited data

How the results depend on the processing

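The calls of Tgfb2 and Tgfb3 against HSCs held in both fibroblast groups under every alternative tried. Of 594 log2 fold changes of the 9 tested genes recomputed, 562 kept direction and call, 24 lost a call, 1 gained one and 7, none of them called, changed sign. For NASH-fib against HSCs, all genes called (1711) became 893 with a mean value of at least 100, which tests fewer genes, and 668 with the leading number pair of the descriptions as a term. For CCl4-fib against HSCs, that term left 2 of the 5 genes of the set called, and all genes called (3801) became 1984 with the mean filter and 2476 with the term. For NASH-fib against CCl4-fib, 0 genes of the set were called with only those groups fitted, with a prior without a trend, with the replicate block and with the number pair, where Ltbp1 had adjusted p-values of 0.0517, 0.0567, 0.0654 and 0.0941 (limma, Benjamini-Hochberg), while edgeR and DESeq2 each called 1. All genes called there (1451) became 773 with the mean filter, 2679 with DESeq2, 929 with the replicate block and 593 with the number pair. The causes were not tested.

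With each library left out in turn, the genes of the set called numbered 3, 3 to 5 and 0 to 1 for NASH-fib against HSCs, CCl4-fib against HSCs and NASH-fib against CCl4-fib, and all genes 1258 to 1993, 2446 to 4872 and 212 to 1804. The count of 2446 was without CCl4-fib replicate 2, and the last comparison gave 532, 212 and 695 without CCl4-fib replicates 1, 2 and 3 and 684 and 269 without NASH-fib replicates 1 and 3. Tgfbr1 ran from -0.01 to 0.73 and Smad3 from -0.31 to 0.08 in NASH-fib against HSCs, and Tgfbr1 from -0.45 to 0.01 and Tgfbr2 from -0.31 to 0.06 in CCl4-fib against HSCs. With HSC replicate 2 and NASH-fib replicate 1 both left out, Tgfbr1 was 0.01 and Tgfbr2 0.06 in CCl4-fib against HSCs, and the calls numbered 4, 5 and 1. The replicate numbers did not pair the samples, since deviations of same-numbered libraries correlated from -0.473 to 0.514, and the block changed no call of the set but that of Ltbp1 against CCl4-fib. Tgfb1, at 0 to 8 reads a library, did not pass the filter on low reads. Without that filter its log2 fold change was -1.46, -1.70 and 0.24 in the 3 comparisons (limma, adjusted p = 0.309, 0.128 and 0.87).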
